A study of Homo sapiens with 6 samples.

Results

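The transcripts described are 10 noncoding hosts of small nucleolar RNAs (snoRNAs): GAS5, SNHG1, SNHG5, SNHG6, SNHG8, SNHG12, SNHG15, SNHG16, ZFAS1 and EPB41L4A-AS1. They were chosen by symbol, and all 10 were found among the 26364 genes of the authors' deposited table. RNA-seq was done on REH, an established human line grown from a B-precursor acute lymphoblastic leukaemia, so that a single line stands for the disease here. Of 2 groups, one received 50 µM S3I-201, a small-molecule inhibitor directed at STAT3, for 6 h, and the other received only DMSO, the solvent, for the same 6 h. The 3 libraries of each group came from independent experiments, per the series' design text. For each gene the deposited table pools the 6 libraries into 1 mean normalized count and 1 log2 fold change with its p and adjusted p, so values per library cannot be shown. It does not state which group is the reference. Positive fold changes are read as higher in S3I-201, and every direction below would turn under the opposite reading.

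A snoRNA host is transcribed as a precursor whose introns carry snoRNAs. Splicing releases the introns, the snoRNAs are trimmed out and packed with proteins, and they then guide chemical modification of other RNAs, mostly ribosomal RNA: box C/D snoRNAs guide ribose methylation and box H/ACA snoRNAs guide conversion of uridine to pseudouridine. The spliced exons of many noncoding hosts leave the nucleus, are engaged by ribosomes at short reading frames and are removed by nonsense-mediated decay, a pathway that needs translation, so these RNAs are known to build up when translation is blocked. Several hosts also begin with a pyrimidine tract like that of ribosomal protein mRNAs (5′ TOP mRNAs), whose translation follows growth signals.

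The sequences at the annotated starts are printed to show where that tract is found among the hosts. RefSeq (GRCh38.p14) had a start window for 8 of the 10 hosts and none for SNHG6 and SNHG15. Each line below gives 60 bases on the gene's own strand, 5′ to 3′, of which 30 precede the annotated start, with capitals marking a C followed by at least 4 pyrimidines that begins within 5 bases of the start.
ZFAS1 (chr20:49278612-49278671, plus strand): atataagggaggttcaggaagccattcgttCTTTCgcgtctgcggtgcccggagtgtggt
SNHG5 (chr6:85678704-85678763, minus strand): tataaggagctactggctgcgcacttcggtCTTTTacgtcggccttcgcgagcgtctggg
SNHG12 (chr1:28581844-28581903, minus strand): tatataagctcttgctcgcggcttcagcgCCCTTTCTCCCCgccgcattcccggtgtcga
SNHG8 (chr4:118278732-118278791, plus strand): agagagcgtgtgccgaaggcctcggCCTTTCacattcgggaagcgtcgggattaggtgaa
SNHG1 (chr11:62855856-62855915, minus strand): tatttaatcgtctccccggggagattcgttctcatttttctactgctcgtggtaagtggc
Such a tract was found in 5 of the 8 hosts with a window, namely SNHG5, SNHG8, SNHG12, SNHG16 and ZFAS1, and in 21.1% of the 35116 promoters in the RefSeq table. In SNHG8 it begins 5 bases before the annotated start and in SNHG16 5 bases after it, at the limits of the search. SNHG1 is shown as a host without these letters at its annotated start. RefSeq places the start of GAS5 upstream of the one in GENCODE 29, which lies outside its window and was not searched. The absence of GAS5 from the 5 therefore does not show that it lacks the tract at the GENCODE start. The windows printed for ZFAS1, SNHG8 and SNHG12 lie wholly downstream of their GENCODE 29 starts (49278178, 118278709 and 28583132). The tracts marked in them are therefore not at the GENCODE starts, which are used below for gene positions, overlaps and maps. The starts of SNHG1, SNHG5 and SNHG16 differ by fewer bases.

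Within the 300 bases around each start (250 before, 50 after), 4 motifs were searched on both strands, without regard to overlap between motifs. TTCNNNGAA, the core bound by STAT factors, occurred in 0 of 8 host promoters and in 7.66% of all promoters. TGACNNNGC, bound by NRF2, occurred in 0 of 8 and in 13.3% of all, TGATGNAAN, bound by C/EBP-ATF pairs, in 0 of 8 and in 3.61% of all, and CACGTG, an E-box, in 0 of 8 and in 7.26% of all. These counts say only that the letters are not in these windows.

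The comparison asks which host transcripts changed in REH cells with the STAT3 inhibitor. Of the 10 hosts, 2 rose in S3I-201 at an adjusted p of 0.05, 0 fell and 8 missed that threshold, by the tests of the authors' deposited table. The 2 were ZFAS1 and SNHG1, at 1.48-fold and 1.35-fold. Over all 11912 genes with an adjusted p, 5.9% passed, 4.45% as higher and 1.45% as lower. Among the 7155 genes with means in the hosts' own range, 4.37% passed as higher. Positive values were found for 8 of the 10 hosts and for 46.4% of all tested genes, with a median log2 fold change of 0.23 for the hosts and -0.02 for all tested genes. An unadjusted p under 0.05 was reached by 4 of the 10 hosts, all with positive values. Of all 11912 tested genes, 9.11% had both an unadjusted p under 0.05 and a positive value. In bulk RNA, more cells of a kind and more RNA per cell cannot be told apart. Fold changes of weakly expressed genes appear shrunken towards 0, such as 0.04 for the snoRNA SNORD1B at a mean of 0.140 in the authors' deposited table, so their sizes may be understated.

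ZFAS1, which is transcribed away from the 5′ end of the ZNFX1 gene and carries 3 box C/D snoRNAs, had the largest value of the 10. Its mean normalized count was 1018 and its log2 fold change, from the authors' deposited table, was 0.56 (implied SE 0.15, 95% interval 0.27 to 0.85, DESeq2 adjusted p = 0.00493). The implied SE was obtained by dividing the fold change by the normal deviate that gives the p-value. ZFAS1 ranked 556 from the top of the 11912 tested genes by fold change, so many other genes had larger increases. ZFAS1 lies on chromosome 20 from 49278178 to 49295738 on the plus strand (GENCODE 29, GRCh38, whole gene). ZNFX1, an RNA helicase-like zinc finger protein, is on the other strand, and in GENCODE 29 the annotations of both overlap by 249 bases at their 5′ ends. The kit does not mark the strand, so reads in that stretch cannot be assigned to either. By the RefSeq start printed above, ZFAS1 begins beyond this stretch, so the overlap depends on the annotation. ZNFX1 itself had a mean normalized count of 1392 and a log2 fold change, from the authors' deposited table, of 0.06 (adjusted p = 0.909).

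SNHG1, host of 8 box C/D snoRNAs, was the most abundant of the 10. It had a mean normalized count of 2813 and a log2 fold change, from the authors' deposited table, of 0.43 (implied SE 0.14, interval 0.16 to 0.70, DESeq2 adjusted p = 0.0320). SNHG1 lies on chromosome 11 from 62851988 to 62855914 on the minus strand (GENCODE 29). Its annotated start is 188 bases from that of SLC3A2, which runs the other way and encodes the heavy chain of amino acid transporters. SLC3A2 rose by more than SNHG1, at 2.85-fold with a log2 fold change, from the authors' deposited table, of 1.51 (implied SE 0.16, adjusted p = 7.71e-18, mean 3731). Both genes of this divergent pair were therefore higher in S3I-201, and the part of SLC3A2 in the value of SNHG1 was not tested.

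**Figure D1:**
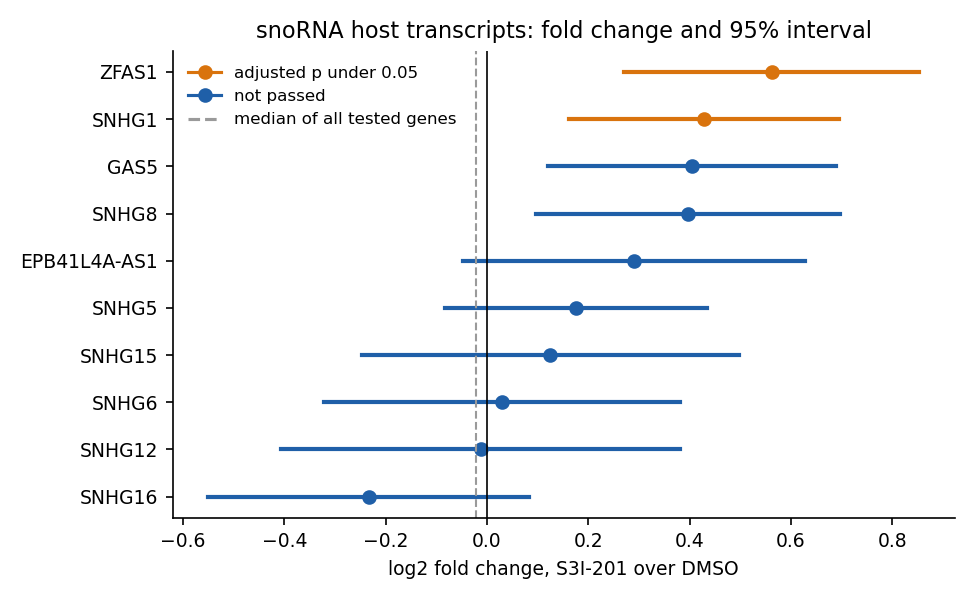
Log2 fold change (x axis, S3I-201 over DMSO) of the 10 host transcripts, as points with the 95% interval from the implied SE as lines. ZFAS1 and SNHG1, in orange, passed the adjusted p of 0.05, and the intervals of 4 hosts lie wholly above 0, while those of the other 6 hold 0.

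GAS5 and SNHG8 had values close to that of SNHG1 and did not pass. GAS5, named for its build-up in growth-arrested cells and known to bind the glucocorticoid receptor, hosts 10 box C/D snoRNAs. Its mean normalized count was 1152 and its log2 fold change, from the authors' deposited table, was 0.40 (implied SE 0.15, interval 0.12 to 0.69, DESeq2 adjusted p = 0.0801). With the median fold change of genes of like abundance subtracted, GAS5 passed (log2 fold change 0.46, adjusted p = 0.0321). GAS5 overlaps 801 bases of ZBTB37 on the other strand, whose mean was only 50.0 in the authors' deposited table, with a log2 fold change of 0.10 (adjusted p = 0.926).

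SNHG8, host of the H/ACA snoRNA SNORA24, had a mean normalized count of 465 and a log2 fold change, from the authors' deposited table, of 0.40 (implied SE 0.15, interval 0.10 to 0.70, DESeq2 adjusted p = 0.117). No gene of the table overlaps it or starts within 1 kb of its start in GENCODE 29. The intervals of SNHG8 and GAS5 do not hold 0, which describes each gene alone, before adjustment over the table.

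EPB41L4A-AS1, host of the H/ACA snoRNA SNORA13, was the host with the lowest mean, 210.0, and had a log2 fold change, from the authors' deposited table, of 0.29 (interval -0.05 to 0.63, adjusted p = 0.442). The whole of it lies inside EPB41L4A on the other strand, a gene with a mean of 3.90 in the same authors' deposited table. SNHG5, host of SNORD50A and SNORD50B, had 0.18 at a mean of 749.6 in the authors' deposited table (interval -0.08 to 0.43, adjusted p = 0.586). SNHG15, host of SNORA9, stood at 0.12 with a mean of 293.8 in the authors' deposited table (interval -0.25 to 0.50, adjusted p = 0.843). The intervals of these 3 hosts hold 0, and they also hold the value of SNHG1, so neither was shown for them.

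SNHG6, SNHG12 and SNHG16 had values near or below 0. SNHG6, host of SNORD87, had a log2 fold change, from the authors' deposited table, of 0.03 at a mean of 493 (interval -0.32 to 0.38, adjusted p = 0.965). SNHG12, which carries 3 H/ACA snoRNAs and 1 box C/D snoRNA, had -0.01 at a mean of 300.5 in the authors' deposited table (interval -0.41 to 0.38, adjusted p = 0.988). Its sign turns to 0.01 when the median of all tested genes or of genes of like abundance is subtracted. SNHG16, host of SNORD1A, SNORD1B and SNORD1C, had the lowest value, -0.23 at a mean of 591 in the authors' deposited table (interval -0.55 to 0.08, adjusted p = 0.540). The values of the 10 hosts were spread over 0.80 on the log2 scale from SNHG16 to ZFAS1, and the intervals of these 2 do not overlap. This pair was picked as the lowest and highest of the 10, which favours such a gap, and the difference between hosts was not tested.

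**Figure D2:**
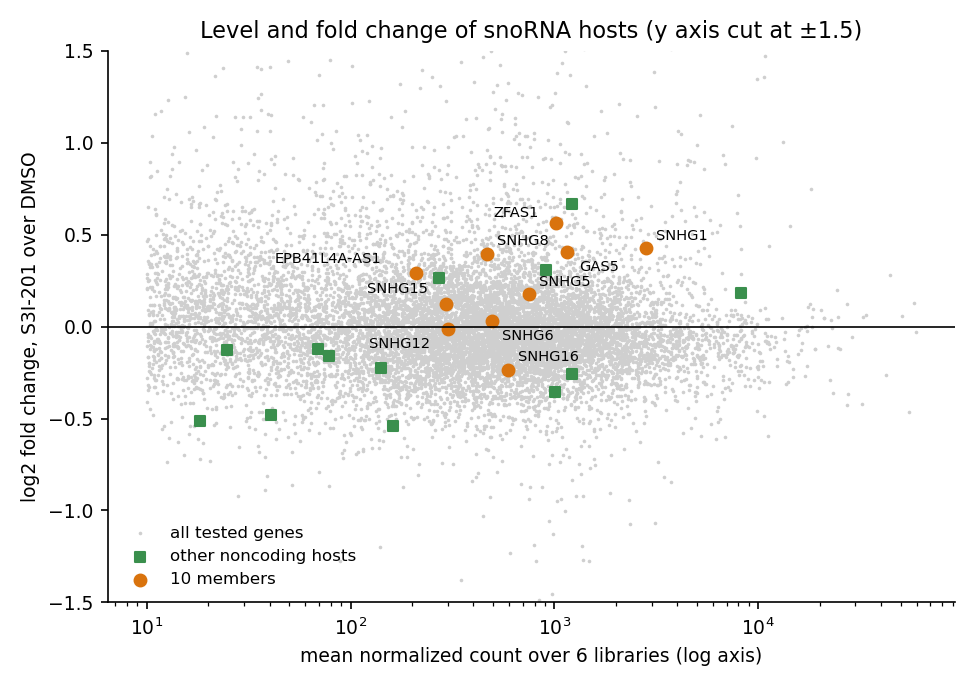
Mean normalized count over the 6 libraries (x axis, log scale) and log2 fold change (y axis) of all tested genes in grey, of the 10 hosts in orange and of 13 other noncoding hosts in green; genes beyond 1.5 in size are not shown. The 10 hosts span means of 210.0 to 2813, and 3 of the 4 with values near 0.40 or above have means over 1000 (GAS5, SNHG1 and ZFAS1).

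Levels between hosts were compared per kb of exon, using the exons of GENCODE 29 transcripts matched to RefSeq, since the authors' own annotation was not given in the sources used here. SNHG1 had 1882 mean normalized counts per kb, SNHG5 1743, GAS5 1469 and ZFAS1 989. SNHG8 had 692 per kb and SNHG6 638, followed by SNHG15 with 262, SNHG16 with 234, SNHG12 with 141 and EPB41L4A-AS1 with 70.7. With no value per library these levels have no spread, so the order of neighbours in it was not tested. The 4 hosts with the highest level per kb were both hosts that rose and 2 that did not pass, SNHG5 and GAS5.

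The exons of the hosts were read for short reading frames. The hosts were listed as RNAs known to respond to translation-coupled decay, so what they share here is a description and not independent of that choice. In the RefSeq-matched transcript with most exons, the reading frame of the first AUG was short. It ranged from 4 codons in SNHG8 to 117 in ZFAS1, with a median of 19.5. The first AUG of ZFAS1, at base 152 of its GENCODE transcript, lies upstream of the RefSeq start printed above, so its frame depends on the annotation. In each of the 10 the frame ended more than 50 bases before the last exon junction, the layout that nonsense-mediated decay is known to act on. Over all 28 spliced RefSeq-matched transcripts of the hosts, 27 had this layout, and in 3598 other long noncoding genes it was found in 78.3%. The layout was found in the hosts that rose and in those that did not pass.

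The 34 snoRNAs carried by the hosts have rows of their own in the deposited table, and all 34 lie inside the span of their host in RefSeq. The library kit is not made for RNAs of this size, and these rows hold few reads, in which the snoRNA and unspliced host RNA cannot be told apart. The snoRNAs of ZFAS1, the host with the largest value, and SNORA24, the hosted snoRNA with the smallest p, are printed from GENCODE 29 (GRCh38, plus strand). Capitals mark the first TGATGA and the last CTGA, the letters of boxes C and D, or the last ACA of SNORA24.
SNORD12 (chr20:49280683-49280772): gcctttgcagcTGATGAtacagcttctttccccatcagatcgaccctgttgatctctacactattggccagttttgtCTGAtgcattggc
SNORD12B (chr20:49280319-49280409): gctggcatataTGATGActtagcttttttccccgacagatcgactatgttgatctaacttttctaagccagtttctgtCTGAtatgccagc
SNORD12C (chr20:49278940-49279028): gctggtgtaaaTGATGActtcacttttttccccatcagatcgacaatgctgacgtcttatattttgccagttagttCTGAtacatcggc
SNORA24 (chr4:118279190-118279320): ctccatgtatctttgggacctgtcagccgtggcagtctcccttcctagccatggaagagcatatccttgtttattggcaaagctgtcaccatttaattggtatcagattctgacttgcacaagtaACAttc
The 3 snoRNAs of ZFAS1 lie in its introns 1, 2 and 3, and SNORA24 lies in intron 2 of SNHG8.

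**Figure D3:**
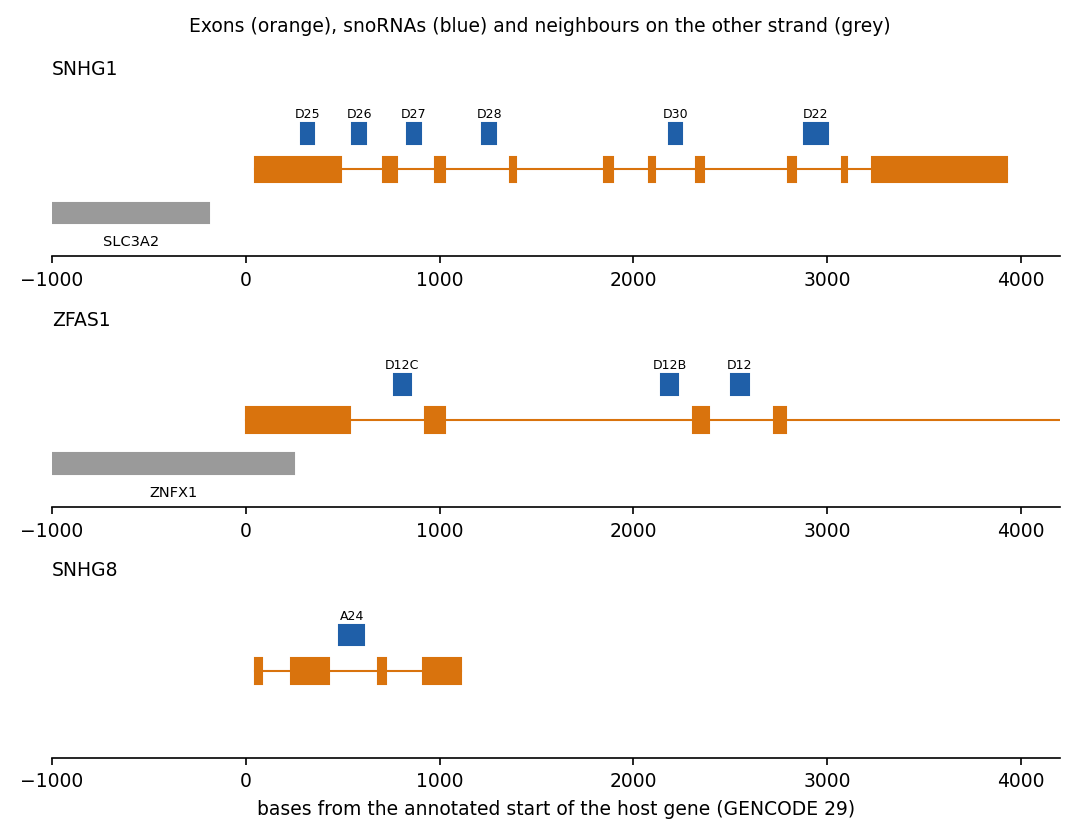
Maps of SNHG1, ZFAS1 and SNHG8 in bases from the annotated start of each host (x axis, GENCODE 29), with exons of the RefSeq-matched transcript with most exons in orange, snoRNAs in blue (D for SNORD, A for SNORA) and genes on the other strand in grey. SLC3A2 begins 188 bases from SNHG1 without overlap, and ZNFX1 overlaps the start of ZFAS1 by 249 bases in this annotation. Each snoRNA shown lies between exons, except SNORD25, which lies in the long first exon of the SNHG1 transcript drawn. The last exon of ZFAS1 lies beyond the right edge.

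The snoRNA rows were mostly on the negative side, without passing a test. Of the 34, 30 had a mean normalized count above 0, from 0.135 to 20.4, and 26 of these 30 had negative log2 fold changes in the authors' deposited table. Among the 5511 genes with means in that range, 42.4% were negative, and among 171 other snoRNAs and small Cajal body RNAs with a mean above 0, 60.8% were. The median mean was 5.07 for the hosted snoRNAs and 1.21 for the 171 others. The 15 hosted snoRNAs with means above 5, a limit set after the values were seen, were all negative, with a median of -0.15. With the same limit, 22 of 30 snoRNAs and small Cajal body RNAs outside the 10 hosts were negative too, with a median of -0.12, against 40.9% of 1380 genes of all kinds with means from 5 to 20.4. The hosted snoRNAs were not tested against these others. With the DESeq2 adjusted p of the authors, 0 of the 9 hosted snoRNAs that had one passed, and 0 of the 30 had an unadjusted p under 0.05, so none was shown to differ between groups on its own. Of the 5511 genes with means in their range, 687 had an adjusted p and 21 passed, and 131 had an unadjusted p under 0.05.

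SNORA24 had a log2 fold change, from the authors' deposited table, of -0.52 at a mean of 13.2 (adjusted p = 0.318), against 0.40 for its host SNHG8. SNORD12, the only snoRNA of ZFAS1 with reads, stood at -0.23 with a mean of 2.70 and no adjusted p in the authors' deposited table, and SNORD12B and SNORD12C were listed at 0. Within GAS5, 8 of 9 snoRNAs with reads were negative, from -0.33 for SNORD76 (mean 17.4) to 0.11 for SNORD74 (mean 1.53) in the authors' deposited table. Within SNHG1, 6 of 8 were negative, from -0.31 for SNORD26 (mean 5.68) to 0.07 for SNORD31 (mean 3.09) in the authors' deposited table, and SNORD22, its most abundant, had -0.08 (mean 15.8). The reads of all snoRNA rows of a host amounted to between 0.239% of the host's own mean for SNHG16 and 12.2% for SNHG12.

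For SNHG12 and its snoRNAs, all 4 rows were negative, from -0.42 for SNORA44 (mean 4.84) to -0.11 for SNORA16A (mean 20.4) in the authors' deposited table, with SNORA61 at -0.21 (mean 8.05) and SNORD99 at -0.19 (mean 3.21). Single snoRNAs of SNHG5, SNHG6, SNHG15 and EPB41L4A-AS1 were also negative in the authors' deposited table, at -0.10 for SNORD50B (mean 10.0), -0.15 for SNORD87 (mean 5.30), -0.08 for SNORA9 (mean 11.1) and -0.20 for SNORA13 (mean 2.96). The 3 snoRNAs of SNHG16 had summed means of only 1.41 and values from -0.09 to 0.04. The difference between a host and its snoRNAs was not tested, since the table has no value per library.

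**Figure D4:**
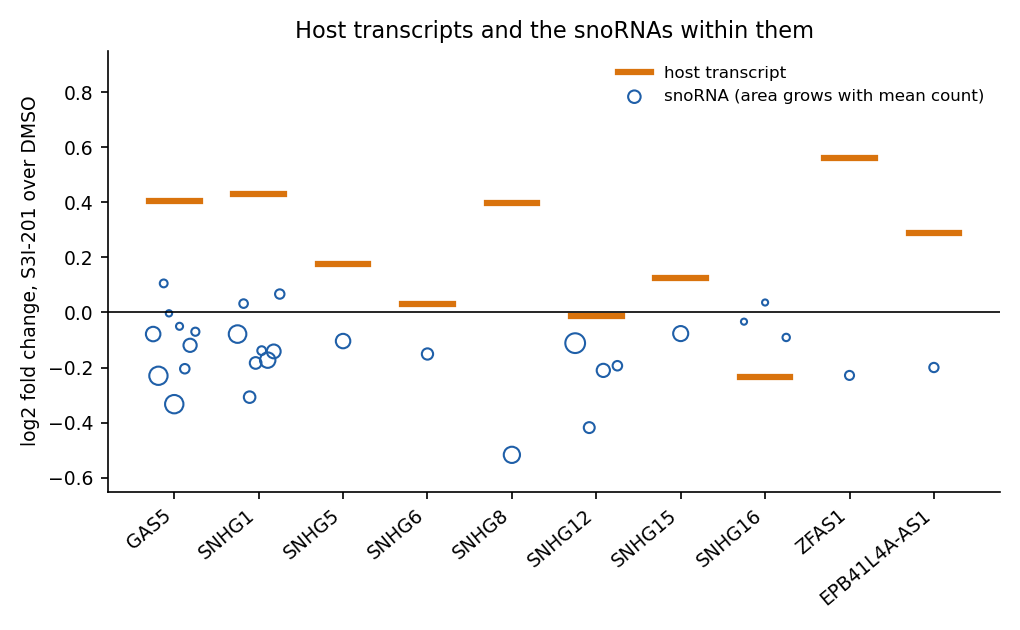
Log2 fold change (y axis) of each host transcript as an orange bar and of each of its snoRNAs with reads as a blue circle whose area grows with the mean normalized count, which is at most 20.4. The circles lie below 0 for 26 of 30 snoRNAs, while 8 of 10 bars lie above 0.

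Other noncoding hosts had values in both directions, most of them negative. Over all tested genes, 4.45% passed as higher, 1.45% as lower and 46.4% had positive values. Of 18 such hosts that were found, 13 were tested: 1 rose, 0 fell and 12 did not pass, with 4 positive values and a median of -0.16. The one that rose was C6orf48, also called SNHG32, at 1.58-fold with a mean of 1214 in the authors' deposited table (log2 fold change 0.66, implied SE 0.14, DESeq2 adjusted p = 9.62e-05), a larger value than that of ZFAS1. SNHG4, named after its value was seen, had the lowest, -0.54 at a mean of 162 in the authors' deposited table (adjusted p = 0.135), and SNHG3, named likewise, had -0.36 at a mean of 1008 (adjusted p = 0.349). DANCR, also a snoRNA host and named likewise, had -0.26 at a mean of 1219 in the authors' deposited table (adjusted p = 0.539). On the positive side, and also named after their values were seen, SNHG7 stood at 0.31 with a mean of 905 (adjusted p = 0.224) and LRRC75A-AS1, the most abundant of the group, at 0.18 with a mean of 8214 (adjusted p = 0.567), both from the authors' deposited table. Values from below -0.50 to 0.66 were found among these noncoding hosts. Those below -0.50, of SNHG4 and SNHG25, had low means, and the 4 positive values had means of 270 or more. Negative values were found at high means too, in SNHG3 and DANCR.

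Protein-coding genes that carry snoRNAs were, as a group, close to all genes, with a median of -0.04 over 50 tested, 1 higher, 2 lower and 47 not past. Over all tested genes, 4.45% passed as higher and 1.45% as lower. HSPA9, the mitochondrial HSP70 chaperone, was the higher one, and the authors' deposited table gave it 0.44 on the log2 scale (DESeq2 adjusted p = 0.0279). The lower ones there, in the authors' deposited table, were WDR43, a ribosome assembly factor, with -0.42 (adjusted p = 0.01001) and TNPO2, a nuclear import receptor, with -0.46 (adjusted p = 0.0108). Proteins that pack and assemble snoRNAs had a median of -0.17 over 19 tested. The DESeq2 adjusted p of the authors passed for 0 of the 19, beside 5.9% of all tested genes, and 3 had an unadjusted p under 0.05. For DKC1, the pseudouridine synthase of H/ACA particles, the authors' deposited table gave -0.38 (adjusted p = 0.0508), and for NOP56, a core protein of C/D particles, -0.33 (adjusted p = 0.204). DKC1 passed when only genes with a mean of at least 100 were adjusted over (adjusted p = 0.0471).

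No factor of nonsense-mediated decay passed. In the authors' DESeq2 test 0 of 22 passed, 0 had an unadjusted p under 0.05, and their median was -0.04. Of all tested genes, 5.9% passed, so 0 of 22 past the threshold is not read as a trait of the group. An unadjusted p under 0.05 with a positive value was found for 9.11% of all tested genes. The smallest adjusted p-values of the group in the authors' deposited table belonged to MAGOH, of the exon junction complex, with -0.25 (adjusted p = 0.396) and UPF3B, which bridges that complex to UPF1, with 0.27 (adjusted p = 0.472). Of 11 tested protein-coding mRNAs known to be sensitive to this decay, 4 rose and 7 did not pass, with a median of 0.07. Of all tested genes, 4.45% passed as higher. The 4 were GADD45A at 1.96, DDIT3 at 1.86, ATF3 at 1.73 and ATF4 at 0.89, as log2 fold changes of the authors' deposited table (DESeq2 adjusted p from 4.05e-19 to 2.54e-07). All 4 are also known as genes of the stress response that ATF4 controls, and the cause of their rise was not tested. The others, among them splicing factors whose mRNAs have decay-triggering exons (SRSF2, SRSF3, SRSF6, SRSF7 and TRA2B), ranged from -0.16 to 0.27 in the authors' deposited table. These values are per gene and do not separate transcripts with such exons from those without.

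mRNAs with a 5′ TOP tract outside the ribosomal protein genes had a median of 0.05 over 15 tested. Beside 5.9% of all tested genes, the authors' DESeq2 test passed 0 of 15, and 1 had an unadjusted p under 0.05. This was EEF2, an elongation factor, for which the authors' deposited table gave 0.28 (adjusted p = 0.153). EEF2 passed with the abundance trend removed (log2 fold change 0.35, adjusted p = 0.0431). TPT1, a TOP mRNA that also carries a snoRNA, stood in the authors' deposited table with 0.20 (adjusted p = 0.625).

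**Figure D5:**
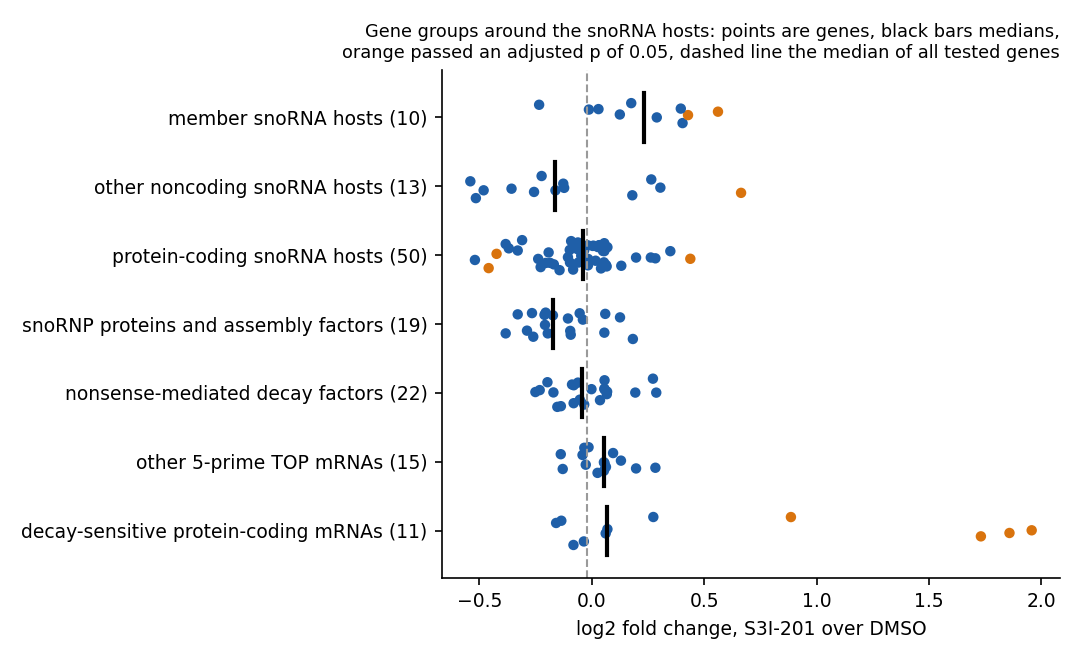
Log2 fold change (x axis) of the tested genes in each group, 1 point per gene, orange where the adjusted p was under 0.05, with black bars at the group medians and a dashed line at the median of all tested genes (-0.02). The 10 hosts have a median of 0.23 and the 13 other noncoding hosts one of -0.16, though several of the latter have means below those of the 10. Some genes stand in more than 1 group.

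Depth was read from genes with a single read, whose means took 6 values that correspond to size factors between 0.573 and 1.27, and so to totals between 6560000 and 14500000 counts. The signs of their fold changes place 0.573, 1.19 and 1.27 in the group read as S3I-201 and 0.948, 1.02 and 1.24 in the other. The shallowest library is thus in the group read as S3I-201. As a check of the cell type, B-precursor genes were abundant, with means of 13622 for DNTT, 10307 for RAG1, 8207 for CD79A, 8093 for PAX5, 5094 for IGLL1, 3982 for CD79B and 2992 for EBF1 in the authors' deposited table, while CD9 had 26.1 and VPREB1 was listed at 0. The T-cell genes CD3D and CD3E were listed at 0 there, as were HBB, HBG1 and PPBP, while MPO, a myeloid gene, had a mean of 978 and COL1A1, a collagen gene, one of 40.6 with a log2 fold change of -0.22 (adjusted p = 0.769). CD14, LYZ, ELANE, KRT18 and PECAM1 had means from 0.135 to 6.93 in the authors' deposited table. The authors' DESeq2 test passed 0 of the 7 B-precursor markers tested, beside 5.9% of all tested genes, and 2 of them, DNTT and RAG1, had an unadjusted p under 0.05.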

How the data were processed

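Total RNA of 6 libraries, 3 per group, was made into TruSeq RNA v2 libraries, per the labels' protocols. The submitters' processing notes name hg38, bcl2fastq 2.19, Trimmomatic, Bowtie2, Picard, featureCounts and DESeq2, as tools of the authors, with no role or order. The annotation, the strand setting and the model are not given in the sources used here. Deposited per gene were a signal (the mean over libraries of counts divided by size factors, here called mean normalized count), a log2 fold change between groups, and its p-value before and after adjustment, per the file headers. The table has no column of single libraries, so a test on counts could not be run, and the authors' adjusted p was used, called at 0.05.

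From these values the implied SE, its 95% interval, Benjamini-Hochberg readjustments and fold changes less the median of their abundance bin (20 bins) were computed with Python 3.11.15, pandas 2.3.3 and SciPy 1.17.1, and tested on simulated data. Gene positions, exons and snoRNA sequences came from GENCODE 29 and start windows from RefSeq. Hosts, lists and tests were chosen with earlier results of these data known, so a list's count is not independent evidence. Named were all hosts, up to 4 called genes per list by smallest adjusted p or the 2 with the smallest where none was called, neighbouring genes that overlap a host or start within 1 kb, and hosted snoRNAs with reads. Not all values of hosted snoRNAs are printed; the remainder lie within the ranges given. One further marker gene, fixed for the check of the cell type, is not reported here.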

Additional observations from a re-analysis of the deposited data

How the results depend on the processing

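The count of 2 hosts past the threshold was 2 when adjusted over every gene that has a p, with genes of a mean of at least 100 only, and with the median of all tested genes subtracted. It was 3 at a threshold of 0.1 and with the abundance trend removed, GAS5 being the third in both. It fell to 1, ZFAS1, at a threshold of 0.01 and with a minimum log2 fold change of 0.5. The median of the hosts was 0.23 as deposited, 0.25 with the median of all tested genes subtracted and 0.26 with the abundance trend removed. SNHG12 turned from -0.01 to 0.0092 with the median subtracted and to 0.013 with the trend removed, which follows from subtracting a negative median. Recomputed for the other gene groups, an alternative added after seeing the data, the count of calls rose by 1 through DKC1 with a minimum mean of 100, from 0 to 1 for snoRNA-packing proteins and from 3 to 4 for protein-coding hosts. It rose by 1 through EEF2 with the abundance trend removed, from 0 to 1 for TOP mRNAs and from 3 to 4 for protein-coding hosts. No paired analysis was possible because the deposited table has no values per library, and for the same reason leaving out each replicate and a second count tool were not run. The libraries differ in depth by the range of size factors given above, and a library that decides a value could not be found from the table. The p-values set the difference between groups against a variation estimated from these libraries, and do not measure that variation.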

Other observations

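Other snoRNA rows of the table gave a further view of RNAs of this class. Of 361 snoRNAs and small Cajal body RNAs outside the 10 hosts, 171 had a mean normalized count above 0 and 12 had an adjusted p. In the authors' DESeq2 test 0 of the 12 passed, beside 5.9% of all tested genes, and 3 of the 171 had an unadjusted p under 0.05. Negative values were found for 55 of 86 box C/D snoRNAs, 39 of 69 H/ACA snoRNAs and 10 of 16 small Cajal body RNAs. The genes below were named after their values were seen. SNORA70 had a log2 fold change, from the authors' deposited table, of -0.58 at a mean of 16.1 (adjusted p = 0.228) and SNORD104 had -0.54 at a mean of 16.3 (adjusted p = 0.284). SCARNA12, the most abundant, had -0.11 at a mean of 56.4 in the authors' deposited table (adjusted p = 0.897), while SCARNA9 had 0.47 at a mean of 18.4 (adjusted p = 0.402).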
